A study of Rattus norvegicus with 6 samples.

Results

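The water channels, vasopressin receptors and urea transporters by which the kidney concentrates urine were compared between 2 rat strains. The set held 10 genes, namely Aqp1, Aqp2, Aqp3, Aqp4, Aqp6, Aqp7, Avpr1a, Avpr2, Slc14a1 and Slc14a2, of 14217 genes with a probe set, and was chosen by gene name as renal aquaporins, vasopressin receptors and urea transporters. Every probe set that the array annotation gives to exactly 1 of these symbols was taken, which made 19 of 31042 probe sets. The congenic strain, named S.LEW(10)x12x2x3x5, carries Lewis (LEW) rat chromosome 10 material on the Dahl salt-sensitive background and gave 3 males. The control strain, the inbred Dahl salt-sensitive (S) rat that becomes hypertensive on salt, gave 3 males too. All 6 were born on the same day, weaned at 30 days of age, fed a low-salt diet with 0.3% salt and killed at 53 days, and a congenic rat shared each cage with an S rat. Total RNA of the kidney was hybridised to an Affymetrix array of its own for each rat. None of the 10 genes lies on chromosome 10 in the rat gene table.

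Aquaporins are membrane channels for water. Aqp1 sits in the proximal tubule, the thin descending limb and the descending vasa recta and carries most of the water that is reabsorbed without hormonal control. In the collecting duct, vasopressin binds its V2 receptor, raises cyclic AMP and drives Aqp2 into the apical membrane, while Aqp3 and Aqp4 let water leave through the basolateral side. Urea moves through products of Slc14a2 in the inner medullary collecting duct and thin limb and of Slc14a1 in the descending vasa recta and red blood cells, and so helps to keep the inner medulla concentrated.

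Of the 19 probe sets, 4 passed an adjusted p of 0.05 (limma, Benjamini-Hochberg over all 31042 probe sets), against 6.00% of all probe sets. There were 2 rises, at a dimmer probe set of Aqp1 and at the only one of Aqp6, where 3.47% of all probe sets rose. There were 2 falls, at the brightest probe set of Aqp4 and at a dimmer one of Slc14a2, where 2.53% of all probe sets fell. Aqp2, Aqp3, Aqp7, Avpr1a, Avpr2 and Slc14a1 had no probe set that passed. Congenic and S values did not overlap in 6 of the 19, which is 31.6% and close to the 31.2% of all probe sets. In 2 of these the congenic rats were higher, as in 12.7% of all probe sets, and in 4 they were lower, as in 18.4%. The median size of the log2 difference was 0.18 for the 19 and 0.10 for all probe sets.

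**Figure D1:**
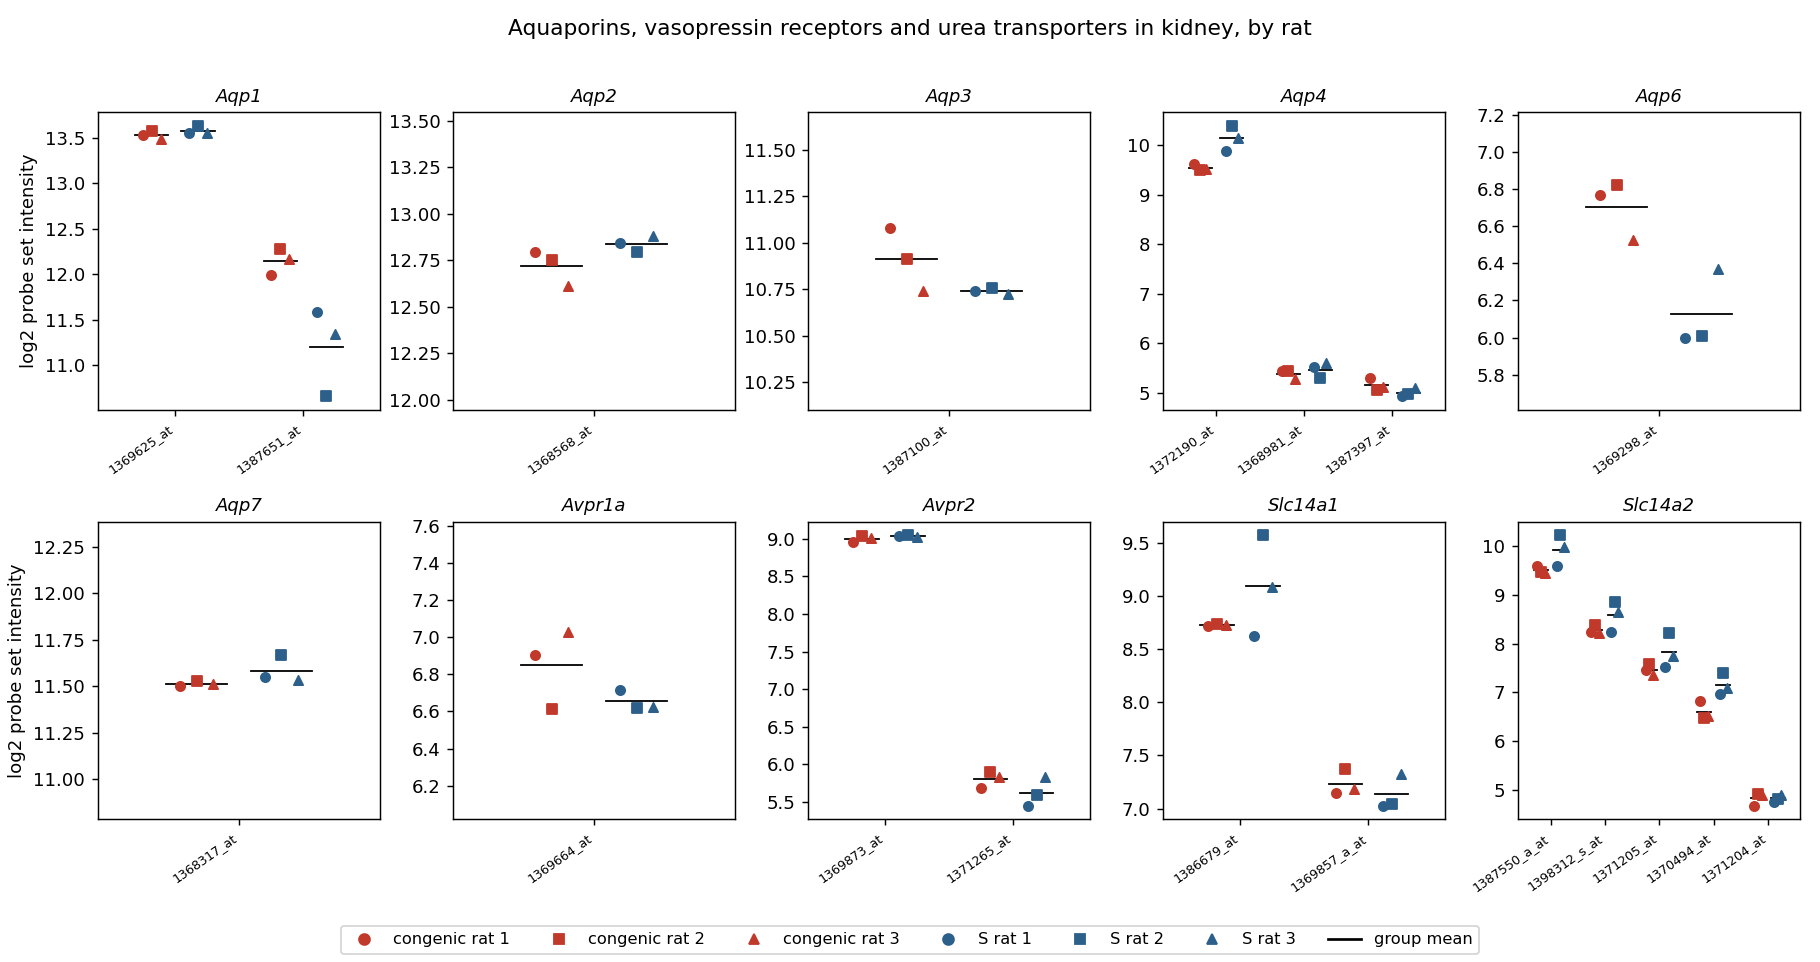
Log2 probe set intensity (vertical axis) of every probe set of the 10 genes in congenic (red, left) and S (blue, right) kidneys, with 1 point per rat and the group mean as a bar. The congenic points lie above the S points at probe set 1387651_at of Aqp1 and at Aqp6, and below them at 1372190_at of Aqp4 and 1370494_at of Slc14a2, while the points of Aqp2 and Avpr2 lie close together.

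The S arrays did not resemble each other as closely as the congenic ones in markers of several segments. Calb1, a calcium-binding protein of the distal tubule, was at 13.50, 13.52 and 13.46 in congenic rats 1 to 3, against 13.51, 9.38 and 12.73 in S rats 1 to 3 (log2 intensity). Nphs1, which encodes the podocyte protein nephrin, was at 8.47, 8.29 and 8.27 in congenic rats, against 8.87, 5.67 and 6.90 in S rats. S rat 2 was the lowest for both genes, and S rat 1 lay within or above the congenic range for each. Summed over the 3 measured distal convoluted tubule markers, linear intensity ran from 16357 to 16539 in congenic rats and from 1431 to 17172 in S rats, with none of 3 called. For the 4 measured podocyte markers it ran from 3837 to 4111 in congenic rats and from 2328 to 4654 in S rats, with none of 4 called. RNA quality was read from the array's own controls for beta-actin and Gapdh, as the 3′ signal minus the 5′ signal, a gap that is wider in degraded RNA. It averaged 1.12 ± 0.13 in congenic and 1.79 ± 0.28 in S rats (log2, SD, n = 3, two-sided exact permutation p = 0.1, which is as low as 3 rats a strain can give). The strains did not overlap in this gap, so a model term for it and the strain cannot be fully told apart. From widest to narrowest the order was S rat 2, S rat 3, S rat 1, congenic rat 1, congenic rat 3 and congenic rat 2. These values stand beside the results that follow, and their part in those results was not tested except where a value is given. In whole kidney RNA, fewer cells of a type and less RNA per cell cannot be told apart.

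Aqp1, the water channel of the proximal tubule and thin descending limb, gave different answers at its 2 probe sets. The brighter, 1369625_at, was at 13.53, 13.58 and 13.48 in congenic rats, against 13.55, 13.63 and 13.56 in S rats. The groups overlapped and the log2 difference was -0.051, with a 95% interval from -0.20 to 0.09 (limma, adjusted p = 0.68). The dimmer, 1387651_at, was at 11.997, 12.28 and 12.17 in congenic rats, against 11.58, 10.66 and 11.35 in S rats. All congenic rats were higher than all S rats there, S rat 2 was lowest, and the rise was 1.94-fold (log2 difference 0.95 ± 0.21 SE, 95% interval 1.39-fold to 2.69-fold, limma, adjusted p = 0.0392). Within each array the brighter probe set exceeded the dimmer by 1.38 ± 0.13 in congenic and by 2.39 ± 0.52 in S rats (log2, SD, n = 3, two-sided exact permutation p = 0.1, chosen after the values were seen). The brighter probe set varied little (SD 0.049 over the 6 arrays), so this gap largely repeats the dimmer one with its sign turned. Its p therefore adds nothing to the call at the dimmer probe set. The order of the 6 rats by this Aqp1 gap was the same as their order by the control gap in every place. The dimmer probe set itself had the reverse order, as 1.5% of all probe sets do, which is not a separate observation. With the control gap as a term in limma's model the dimmer probe set stood at -0.13 ± 0.13 (SE, adjusted p = 0.93). Its call also held without S rat 2 (0.68, adjusted p = 0.0227) and without S rat 1 (1.15, adjusted p = 0.00465), and was lost when any other rat was left out (adjusted p from 0.0760 to 0.15). Where the probes lie along the transcript was not analysed here.

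Aqp2, the channel that vasopressin moves to the apical membrane of the principal cell, was at 12.79, 12.75 and 12.61 in congenic rats, against 12.84, 12.80 and 12.88 in S rats. Every congenic value was below every S value, but by little: the log2 difference of -0.12 ± 0.07 (SE) is a 1.09-fold difference toward S and did not pass (limma, adjusted p = 0.34). The 95% interval ran from -0.28 to 0.04, which does not reach the size of the Aqp4 fall given next. Aqp3, the basolateral channel for water and glycerol in the same cells, was at 11.08, 10.91 and 10.74 in congenic rats, against 10.74, 10.76 and 10.72 in S rats. Congenic rat 3 lay inside the S range and congenic rats 1 and 2 above it, with a difference of 0.17 (95% interval from -0.033 to 0.37, limma, adjusted p = 0.28).

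Aqp4, the other basolateral channel of the collecting duct, fell at its brightest probe set. Probe set 1372190_at was at 9.63, 9.50 and 9.51 in congenic rats, against 9.88, 10.38 and 10.15 in S rats. The congenic values were tightly grouped and the S values spread over a wider range, with S rat 2 highest and S rat 1 nearest to the congenic rats. The S mean was 1.51-fold above the congenic mean (log2 difference, congenic minus S, -0.59 ± 0.12 SE, 95% interval from -0.86 to -0.32, limma, adjusted p = 0.0332). The order of the 6 rats was again that of the control gap, an order shared by 3.04% of all probe sets, and with the control gap in the model the difference was -0.061 ± 0.14 (SE, limma, adjusted p = 0.97). Without S rat 2 it was -0.47 (limma, adjusted p = 0.0408) and without S rat 1 -0.72 (adjusted p = 0.00209). Leaving out any other rat ended the call, at adjusted p from 0.0677 to 0.14. The remaining Aqp4 probe sets were dim, with group means from 5.01 to 5.47, below the lower quartile of every array (5.88 to 5.96). Their differences were -0.08 at 1368981_at (adjusted p = 0.64) and 0.15 at 1387397_at (adjusted p = 0.30). No detection call was used, so it is unknown whether these dim probe sets measured the transcript.

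Aqp6, an anion-permeable channel of intracellular vesicles in the intercalated cell, rose. It was at 6.77, 6.82 and 6.53 in congenic rats, against 6.00, 6.01 and 6.37 in S rats. Congenic rat 3 and S rat 3 were the closest pair and still did not overlap, and S rats 1 and 2 lay near the lower quartile of their arrays (5.88 and 5.89). The rise was 1.49-fold (log2 difference 0.58 ± 0.12 SE, 95% interval 1.24-fold to 1.81-fold, limma, adjusted p = 0.0356). With the control gap in the model the difference was 0.48 ± 0.26 (SE, limma, adjusted p = 0.77), so its size changed less than that of the other called probe sets while its SE widened. The call held without S rat 1 (0.52, adjusted p = 0.0290) and was lost without any other rat, with differences from 0.52 to 0.70 and adjusted p from 0.0693 to 0.14. Of 6 measured intercalated cell markers, Kit rose (0.48) and Slc4a1, the basolateral anion exchanger of acid-secreting cells, whose gene lies on chromosome 10, fell (-0.28), and 4 did not pass. Kit was at -0.0036, Slc4a1 at -0.32 and the list median at -0.40 with the control gap in the model, and that median was 0.27 without it. Their summed linear intensity ran from 7135 to 7332 in congenic rats and from 5612 to 8289 in S rats.

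Aqp7, which carries water and glycerol in the proximal straight tubule and in adipocytes, was at 11.50, 11.52 and 11.51 in congenic rats, against 11.55, 11.67 and 11.53 in S rats. The groups did not overlap, yet only by a narrow margin, and S rat 2 lay farthest from the congenic rats. The log2 difference was -0.07 (95% interval from -0.22 to 0.08, limma, adjusted p = 0.56). Adipocyte markers were lower in all 8 measured genes, with 1 call (Cidec, -0.61, and -0.28 with the control gap). With the control gap in the model Fabp4 (0.23) and Cfd (0.21) turned positive and the others stayed negative. The list median was -0.50, and -0.23 with that term. These markers summed to 4239 to 5150 in congenic and 5315 to 7467 in S rats, and their part in the Aqp7 value was not tested.

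Neither vasopressin receptor passed. Avpr2, the V2 receptor that couples to cyclic AMP, was at 8.96, 9.04 and 9.01 in congenic rats, against 9.04, 9.05 and 9.02 in S rats at 1369873_at. This was the tightest of the 19 probe sets, with an SD of 0.033 over the 6 arrays and a difference of -0.033 (95% interval from -0.17 to 0.11, limma, adjusted p = 0.79). Its second probe set, 1371265_at, was dim, with means of 5.80 in congenic and 5.62 in S rats, and differed by 0.18 (adjusted p = 0.33). Avpr1a, the V1a receptor, which acts through calcium and is best known from vessel walls, was at 6.90, 6.61 and 7.03 in congenic rats, against 6.72, 6.62 and 6.62 in S rats. Congenic rat 2 lay below all S rats and the others above them, with a difference of 0.20 (95% interval from -0.044 to 0.43, limma, adjusted p = 0.29). The only probe set of Avpr1a was dim, at percentile 38.5 of mean intensity. Of 6 smooth muscle and pericyte markers none passed (Tagln at 0.34, adjusted p = 0.054), and their sum ran from 7801 to 8913 in congenic and 5341 to 7712 in S rats.

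Slc14a2, which encodes the UT-A urea transporters in several isoforms from 1 gene, was lower in congenic rats at 4 of its 5 probe sets, 1 of which passed. The brightest, 1387550_a_at, was at 9.59, 9.48 and 9.44 in congenic rats, against 9.58, 10.22 and 9.98 in S rats. S rats 2 and 3 were higher than every congenic rat, while S rat 1 lay within the congenic range. The difference was -0.43 ± 0.14 (SE), with a 95% interval from -0.75 to -0.10, and did not pass after adjustment (limma, adjusted p = 0.11). Probe set 1370494_at was at 6.82, 6.48 and 6.51 in congenic rats, against 6.97, 7.39 and 7.09 in S rats. Here no S rat reached down to the congenic values, S rat 2 was again highest, and the S mean was 1.46-fold above the congenic mean (log2 difference, congenic minus S, -0.55 ± 0.13 SE, limma, adjusted p = 0.0464). Its order of rats was that of the control gap. Probe set 1371205_at was at 7.45, 7.58 and 7.36 in congenic rats, against 7.51, 8.22 and 7.75 in S rats (-0.36, adjusted p = 0.20). Probe set 1398312_s_at, whose suffix marks probes that can match more than 1 transcript, was at 8.24, 8.37 and 8.23 in congenic rats, against 8.24, 8.85 and 8.64 in S rats (-0.30, adjusted p = 0.22). Both repeated the pattern in which S rat 2 was highest, S rat 3 next and S rat 1 among the congenic rats. The dimmest, 1371204_at, had means of 4.83 in congenic and 4.82 in S rats and differed by 0.0051 (adjusted p = 0.98). Which isoforms each probe set detects was not analysed here.

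The Slc14a2 result rested on which S rats were included. Without S rat 1 all 4 brighter probe sets were called lower, with differences from -0.64 to -0.47 and adjusted p from 0.00482 to 0.0338. Without S rat 2 none was called, and the differences ran from -0.43 to -0.16 (limma, adjusted p from 0.0809 to 0.51). The call at 1370494_at was also lost without S rat 3 (adjusted p = 0.12) or without congenic rat 1, 2 or 3 (adjusted p = 0.0555, 0.17 and 0.18). With the control gap in the model the 4 stood between 0.053 and 0.30, on the other side of 0 (adjusted p from 0.87 to 0.98).

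Slc14a1, which encodes UT-B, showed a like profile over rats at its brighter probe set. Probe set 1386679_at was at 8.72, 8.74 and 8.72 in congenic rats, against 8.62, 9.57 and 9.08 in S rats. The congenic rats were almost identical (SD 0.0087), whereas S rat 1 lay below them and S rats 2 and 3 above them (SD 0.47). The difference of -0.36 ± 0.20 (SE) did not pass (limma, adjusted p = 0.29). It was -0.60 without S rat 1 (adjusted p = 0.0171), -0.13 without S rat 2 (adjusted p = 0.64) and 0.53 with the control gap in the model (adjusted p = 0.70). The dimmer 1369857_a_at did not follow it, at 7.14, 7.38 and 7.19 in congenic rats, against 7.03, 7.05 and 7.33 in S rats (0.10, adjusted p = 0.60). Red blood cells carry UT-B too: the 5 measured of 10 listed red cell markers, Hbb among them, summed to 11676 to 21401 in congenic rats, against 19301 in S rat 1, 7035 in S rat 2 and 29516 in S rat 3. S rat 2, the highest for Slc14a1, was the lowest for these markers, and S rat 3, the next for Slc14a1, was the highest for them. The part of red cells in the Slc14a1 value was not tested. Slc14a1 and Slc14a2 are neighbouring paralogues on chromosome 18, and whether any probe set hybridises with both transcripts was not analysed here.

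**Figure D2:**
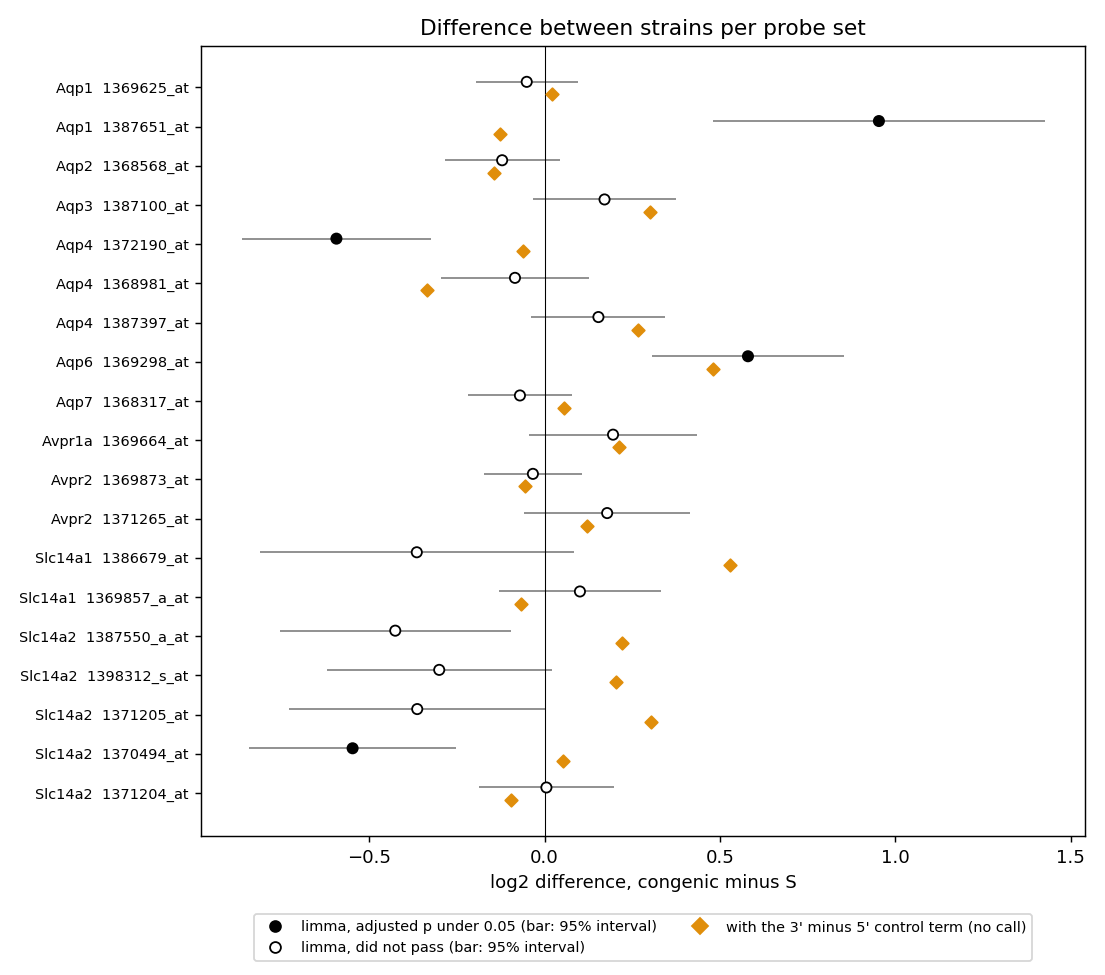
Log2 difference, congenic minus S (horizontal axis), of the 19 probe sets, with circles and 95% intervals from limma (filled where adjusted p was under 0.05) and diamonds for the difference with the 3′ minus 5′ control gap as a term. The diamonds of 1387651_at (Aqp1), 1372190_at (Aqp4) and 1370494_at (Slc14a2) lie near 0, that of Aqp6 stays at 0.48, and those of the brighter Slc14a1 and Slc14a2 probe sets lie right of 0.

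Across the 6 arrays the members fell into groups of like profile, described here with no test because the arrays share the differences in marker content and control gap given above. The 4 brighter Slc14a2 probe sets correlated with each other at Pearson r from 0.77 to 0.96, with 1372190_at of Aqp4 at 0.87 to 0.97 and with 1386679_at of Slc14a1 at 0.79 to 0.97. The dimmest Slc14a2 probe set correlated with these 4 at -0.29 to 0.28. Aqp7 had r from 0.79 to 0.93 with the same 4, 0.82 with 1372190_at of Aqp4 and 0.88 with 1386679_at of Slc14a1, and the brighter Aqp1 probe set had r from 0.67 to 0.89 with the 4, although both varied little in level. The 2 Aqp1 probe sets ran against each other (r = -0.72), as did, weakly, those of Slc14a1 (r = -0.18). Among 3438 probe sets of other genes with an SD of at least 0.2, the profiles most like Aqp4 were Mrpl36 (r = 0.999), Rhbdd3 (0.998) and Klhdc8a (0.996), and 332 exceeded 0.95. For Slc14a2 they were Znrf1 (0.997), Carf (0.993) and Gria3 (0.993), with 143 over 0.95, and for Slc14a1 Capg (0.993), Srpx2 (0.991) and Smoc2 (0.988), with 53. For Aqp6 they were Arhgap1 (0.985), Lrp11 (0.983) and Atp8b2 (0.978), with 11. The brightest probe sets of Aqp1, Aqp2, Aqp3, Aqp7, Avpr1a and Avpr2 varied by SDs of 0.033 to 0.18. Their closest profiles were Wdfy3 (0.954) for Aqp1, Thrsp (0.943) for Aqp2, Akain1 (0.904) for Aqp3, Zeb2 (0.990) for Aqp7, 2610008E11Rikl (0.976) for Avpr1a and LOC102549521 (0.895) for Avpr2.

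**Figure D3:**
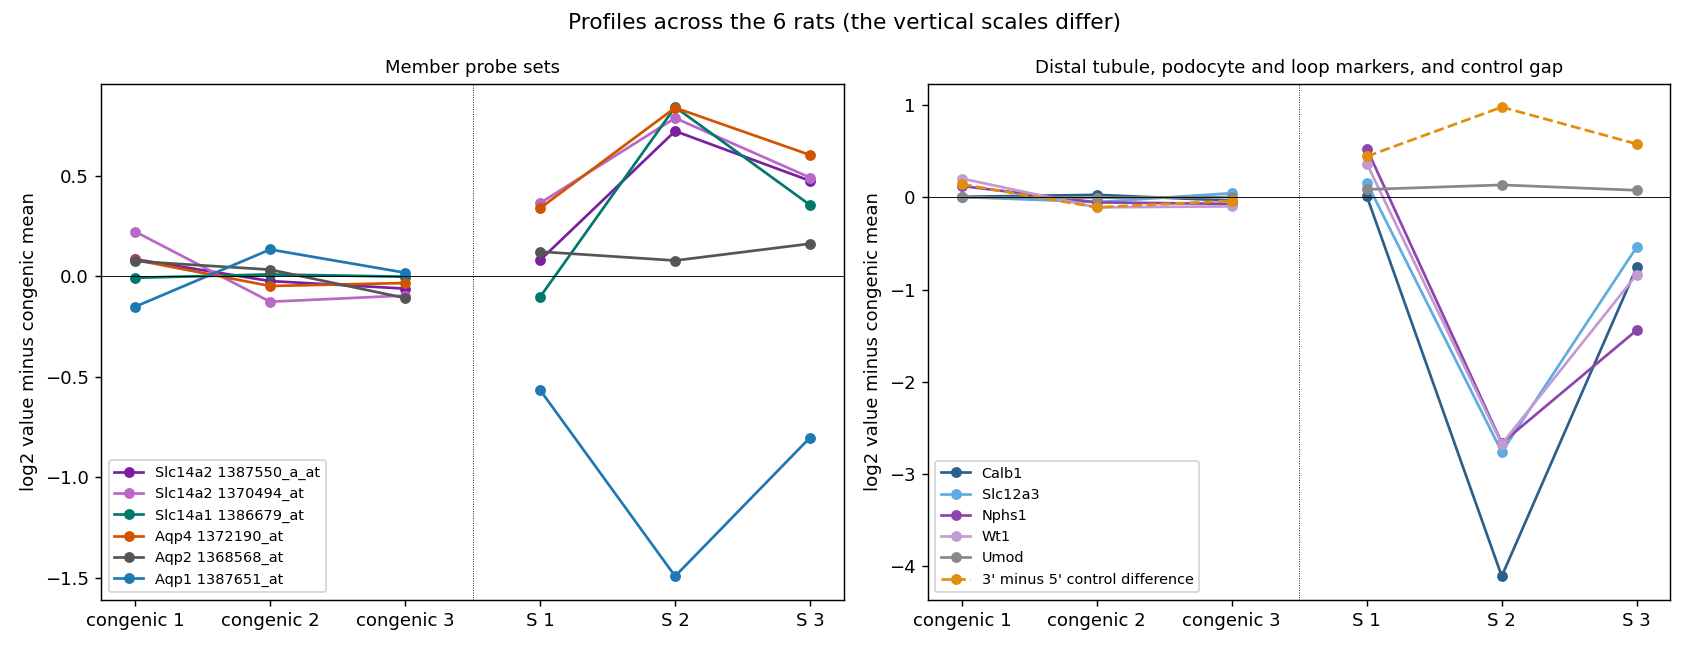
Log2 value minus the congenic mean (vertical axis, scales differ between panels) in each of the 6 rats, for 6 member probe sets on the left and for segment markers and the control gap on the right. Slc14a2, Slc14a1 and Aqp4 peak in S rat 2, where 1387651_at of Aqp1, Calb1, Slc12a3, Nphs1 and Wt1 have their lowest value, and Aqp2 and Umod stay almost level.

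Promoters are shown for Aqp4, Slc14a1 and Slc14a2, whose brightest probe sets were all highest in S rat 2 and next in S rat 3, and for Aqp2, whose transcription is known to respond to vasopressin through cyclic AMP. Each runs 5′ to 3′ from 250 bases before to 50 bases after the gene start in RefSeq (GRCr8, a build used for these sequences only), and 9 of the 10 genes matched an entry. The positions are chr18:6798793-6799092 on the minus strand for Aqp4, chr18:73864594-73864893 on the minus strand for Slc14a1, chr18:74314497-74314796 on the minus strand for Slc14a2 and chr7:132590036-132590335 on the plus strand for Aqp2. Capitals mark the cyclic AMP response element core TGACG or the core TGGAAA of the tonicity element bound by Nfat5, searched on both strands.
Aqp2: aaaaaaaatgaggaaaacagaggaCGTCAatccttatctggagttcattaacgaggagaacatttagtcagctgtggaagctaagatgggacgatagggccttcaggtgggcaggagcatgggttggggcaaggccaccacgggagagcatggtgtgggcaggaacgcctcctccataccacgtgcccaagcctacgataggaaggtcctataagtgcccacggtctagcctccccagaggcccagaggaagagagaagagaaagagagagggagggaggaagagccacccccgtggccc
Aqp4: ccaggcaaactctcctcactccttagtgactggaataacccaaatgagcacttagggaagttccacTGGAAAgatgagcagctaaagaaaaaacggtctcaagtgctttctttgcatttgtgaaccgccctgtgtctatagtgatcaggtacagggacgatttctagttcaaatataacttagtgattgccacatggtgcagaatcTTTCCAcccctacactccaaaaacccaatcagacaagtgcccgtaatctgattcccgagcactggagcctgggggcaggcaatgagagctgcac
Slc14a1: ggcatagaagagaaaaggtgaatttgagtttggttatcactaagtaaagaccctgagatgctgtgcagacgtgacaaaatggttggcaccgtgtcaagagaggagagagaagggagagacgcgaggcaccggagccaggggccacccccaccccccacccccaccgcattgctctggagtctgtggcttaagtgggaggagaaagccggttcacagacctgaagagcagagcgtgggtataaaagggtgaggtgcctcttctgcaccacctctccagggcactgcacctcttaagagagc
Slc14a2: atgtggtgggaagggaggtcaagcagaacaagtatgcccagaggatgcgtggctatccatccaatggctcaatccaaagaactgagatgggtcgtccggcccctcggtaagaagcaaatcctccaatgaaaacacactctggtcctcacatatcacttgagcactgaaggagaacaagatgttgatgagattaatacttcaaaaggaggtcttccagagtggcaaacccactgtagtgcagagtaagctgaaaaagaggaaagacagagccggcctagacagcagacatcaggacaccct
The Aqp2 window held 1 match to TGACG, on the opposite strand, as 21.2% of all 33469 promoter windows hold at least 1. The Aqp4 window shown held 2 matches to TGGAAA, of which 22.7% of all windows hold at least 1, and the second Aqp4 window in the table held 1. The Slc14a1 window and both Slc14a2 windows held neither motif, which says only that these letters are not in those 300 bases. Avpr1a also had 1 match to TGACG and Aqp6 had 1 to TGGAAA.

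For the wider vasopressin pathway and the marker lists, values are those of the brightest probe set of each gene, by which 4.79% of all 14217 genes were called and the median log2 difference was -0.035. Of 33 measured genes of vasopressin signalling and Aqp2 trafficking, 2 fell and 31 did not pass, a called share near that of all genes, with a median of -0.031. Sipa1l1, a GTPase-activating protein for Rap, was at 9.31, 9.22 and 9.22 in congenic rats, against 9.54, 9.55 and 9.54 in S rats (-0.29, limma, adjusted p = 0.0372). Rap1gap, another Rap GTPase-activating protein, was at 10.60, 10.65 and 10.66 in congenic rats, against 10.87, 11.00 and 10.96 in S rats (-0.31, limma, adjusted p = 0.0369). In both genes the groups were clearly apart, and each call held when S rat 1 was left out and for no other rat, with differences from -0.32 to -0.28 for Sipa1l1 and from -0.34 to -0.28 for Rap1gap. With the control gap in the model they were at -0.24 and -0.22. The adenylyl cyclase gene Adcy6, the main one of the collecting duct, was at -0.08 (adjusted p = 0.49), Gnas, which encodes the stimulatory G protein, at 0.036 (adjusted p = 0.83), and Prkaca, a catalytic subunit of protein kinase A, at 0.067 (adjusted p = 0.67). These 3 were picked by role after the values were seen. Some other adenylyl cyclase and protein kinase A genes differed more and did not pass. Adcy3 was at -0.42 (limma, adjusted p = 0.0729), Adcy9 at -0.20 (adjusted p = 0.0918) and Prkar2b at -0.35 (adjusted p = 0.12). Prkacb was at 0.21 (adjusted p = 0.11). In the same order these stood at 0.12, -0.28, 0.060 and 0.099 with the control gap in the model. Pde1a, a phosphodiesterase, had the smallest unadjusted p of the list's genes that did not pass (0.67, adjusted p = 0.0606, -0.19 with the control gap). Its S mean of 5.59 lay below the lower quartile of every array (5.88 to 5.96).

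Of 7 measured genes of the tonicity response, 1 fell and 6 did not pass. The median was -0.19, and 0.070 with the control gap in the model. Slc5a3, the myo-inositol cotransporter that loads medullary cells with osmolyte, was at 10.62, 10.62 and 10.58 in congenic rats, against 11.20, 11.23 and 11.29 in S rats. The groups lay far apart relative to their spread (SD 0.024 and 0.047), and the fall was -0.64 ± 0.06 on the log2 scale (SE, limma, adjusted p = 0.00918). It was -0.63 with the control gap in the model, where no probe set of the array passed, Slc5a3 included. With any 1 rat left out it was between -0.66 and -0.61. The call held without S rat 1, S rat 2 or congenic rat 1. It was lost without S rat 3, congenic rat 2 or congenic rat 3, where 0, 0 and 8 probe sets of the whole array passed. Akr1b1, aldose reductase, which makes the osmolyte sorbitol, was at 11.19, 11.00 and 11.14 in congenic rats, against 11.33, 11.93 and 11.38 in S rats (-0.43, adjusted p = 0.11, 0.29 with the control gap), and S rat 2 was highest. Nfat5 itself was at -0.19 (adjusted p = 0.15). Of 8 measured genes of the salt transport that builds the medullary gradient, 1 fell and 7 did not pass. That 1 was Casr, the calcium-sensing receptor of the thick ascending limb (-0.43, limma, adjusted p = 0.0312; -0.14 with the control gap), whose call held only without S rat 1 or S rat 2. In that list the differences went both ways. Kcnj1, the potassium channel ROMK, was at 0.58 (adjusted p = 0.0671, -0.23 with the control gap) and Atp1b1, the beta subunit of the sodium pump, at 0.62 (adjusted p = 0.0721, -0.24 with the control gap). Ptger3, a prostaglandin E2 receptor that opposes vasopressin in this segment, was at -0.40 (adjusted p = 0.0568, 0.013 with the control gap), and Slc12a1, the sodium-potassium-chloride cotransporter of that segment, was at -0.11 (adjusted p = 0.45).

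Of the 6 other aquaporins, Aqp5, Aqp8, Aqp9, Aqp11, Aqp12a and Mip, none passed, the differences ran from -0.19 to 0.13, and Aqp11, an intracellular channel of the proximal tubule, was lowest (adjusted p = 0.19). Of 9 measured principal cell markers, which mark the cells that hold Aqp2, Aqp3 and Avpr2, none passed. Their differences were positive in 5 genes and negative in 4. Fxyd4, a regulator of the sodium pump in the collecting duct, was at 11.45, 11.44 and 11.32 in congenic rats, against 11.58, 12.07 and 11.81 in S rats (-0.41, adjusted p = 0.0686). Elf5, a transcription factor of principal cells, was at -0.51 (adjusted p = 0.0674). S rat 2 was highest for Fxyd4 and Elf5, but lowest of all rats for Scnn1a, Scnn1b, Scnn1g, Hsd11b2, Tmem45b and Kcnj1. Kcnj1 had the opposite sign, at 10.50, 10.67 and 10.65 in congenic rats, against 10.35, 9.62 and 10.09 in S rats (0.58, adjusted p = 0.0671). All 3 changed sign with the control gap in the model, Fxyd4 to 0.068, Elf5 to 0.078 and Kcnj1 to -0.23, and the list median was -0.23, against 0.19 without that term. The list summed to 12229 to 12290 in congenic rats and 10567 to 12694 in S rats, and their part in the values of Aqp2, Aqp3 and Avpr2 was not tested. Of 12 proximal tubule markers, which mark the cells of Aqp1 and Aqp7, 2 rose and 1 fell, namely the sodium-glucose cotransporter Slc5a2 (1.67), the lactate transporter Slc5a12 (2.28) and the organic anion transporter Slc22a7 (-0.50). In the same order these stood at 0.60, 1.33 and -0.20 with the control gap in the model. The list had sums of 133041 to 138341 in congenic and 127769 to 134284 in S rats. Of 5 thick ascending limb markers Cldn16 fell (-0.35, and -0.20 with the control gap) and 4 did not pass, with sums of 46023 to 47049 in congenic and 49680 to 50939 in S rats. None of 7 endothelial and vasa recta markers passed (Flt1 at 0.29, adjusted p = 0.0865), with sums of 8337 to 8759 in congenic and 8108 to 8709 in S rats. Of 5 leukocyte markers Lyz2 rose (0.35, and 0.43 with the control gap) and 4 did not pass (Ptprc at 0.32, adjusted p = 0.0537), with sums of 10598 to 11910 in congenic and 8786 to 9414 in S rats.

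**Figure D4:**
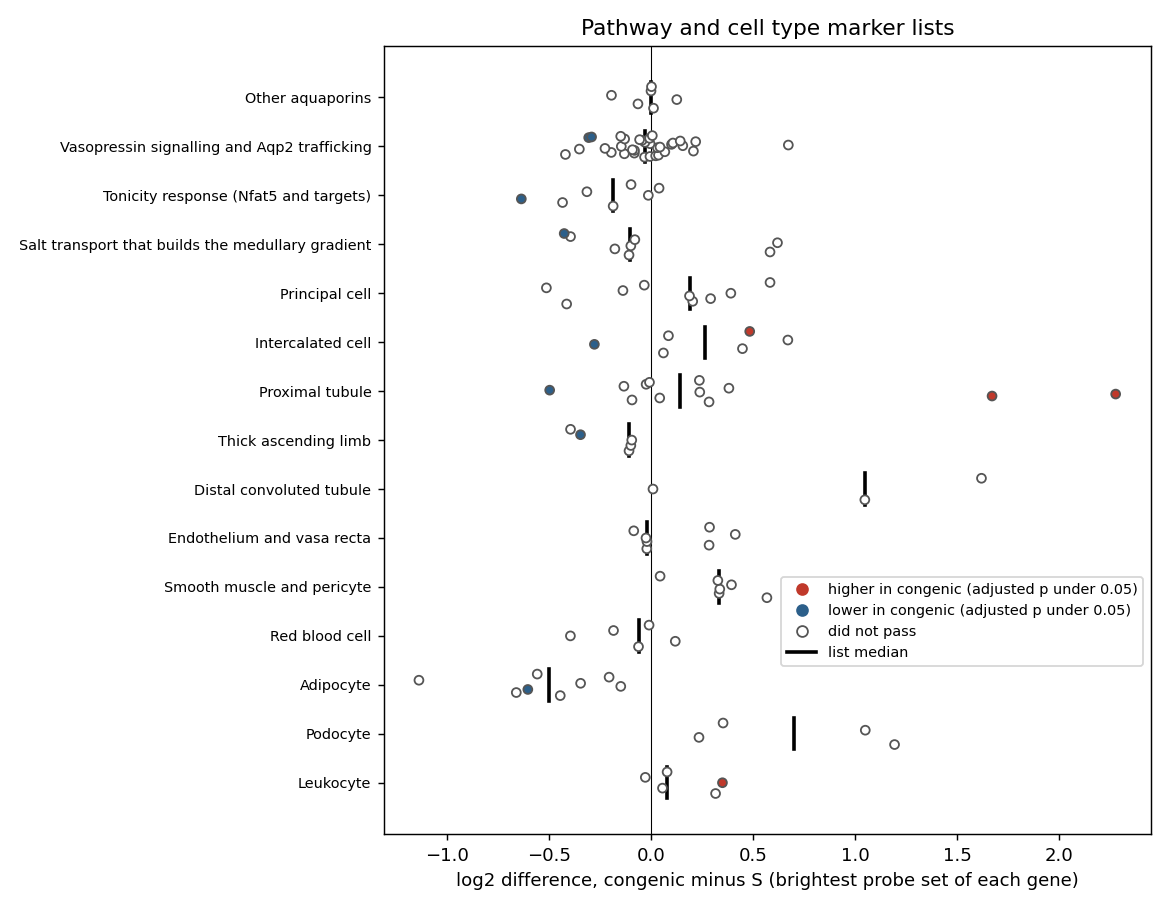
Log2 difference, congenic minus S (horizontal axis), of each gene of the 4 pathway lists and 11 marker lists (1 point per gene at its brightest probe set, red higher and blue lower at an adjusted p under 0.05), with the list median as a bar. The fall of Slc5a3 at -0.64 stands apart in the tonicity list, and the distal convoluted tubule and podocyte medians lie to the right at 1.05 and 0.70 with no gene called; with the control gap in the model these medians are -1.95 and -1.06, and without S rat 2 both are 0.19.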

How the data were processed

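Kidney RNA of 6 rats was hybridised to Affymetrix rat arrays, per the labels' protocols. Values deposited by the authors are log2 intensities (array medians 7.47 to 7.50), a scale judged from the values, as the method is not given in the sources used here. The series' design text names Benjamini-Hochberg adjustment in R. Scanner files were not used here. The number of arrays limits the precision. The limma p-values weigh the spread between 3 rats per group together with a variance estimated over all probe sets (4 residual and 8.49 total degrees of freedom).

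Of 31099 probe sets, 57 controls were left out. Of the 31042 tested, 20826 had 1 gene symbol in the platform annotation, 436 several, and 9780 were not listed. Symbols were updated by Entrez identifier to the GRCr8 RefSeq table (20758 matched). No 2 arrays were identical (correlations 0.985 to 0.998). The strains were tested by lmFit and eBayes of limma 3.58.1 (R 4.3.3, two-sided, Benjamini-Hochberg over all tested, adjusted p under 0.05). On simulated data for this comparison with 31042 probe sets, 52.2% of 67 changes of 0.5 on the log2 scale were recovered, 86.6% of 67 changes of 1 and 98.5% of 66 changes of 2, with 3 false calls. The simulated noise was independent between probe sets and had the same SD in both strains. The real arrays share a control gap that differs by strain, and the S rats spread more widely in several markers. These rates therefore check the code and do not give the error rate of the calls here. Figures used matplotlib 3.10.9.

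The members, gene lists and alternatives were chosen with earlier results of these data known. Named are all member probe sets and, per list, called genes or up to 3 with the smallest p. Likeness is the highest Pearson r. Adcy3, Adcy6, Adcy9, Gnas, Prkaca, Prkacb, Prkar2b, Atp1b1 and Slc12a1 were chosen after their values were seen. So were the principal cell markers named only for the place of S rat 2. Other settings tried were the control gap as a covariate, the rat number as a block, array weights, 2 rescalings (quantile and median), trended, robust and unmoderated variances, omission of probe sets below percentile 40 of mean intensity, and omission of each rat.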

Additional observations from a re-analysis of the deposited data

How the results depend on the processing

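Quantile normalization, median centring, an intensity trend, robust eBayes and the filter on dim probe sets changed the total of 1862 calls by less than 1.5 times. Array weights gave 6077 calls, the replicate block 658, and the unmoderated test and the control gap term 0 each, where 6166 and 2292 had an unadjusted p under 0.05. With 1 rat left out the total ran from 0 to 4752. It was 4752 when S rat 1 was dropped, 968 for S rat 2, 350 for congenic rat 1 and 8 for congenic rat 3. It was 0 for S rat 3 and for congenic rat 2, where limma gave 6968 and 5575 with an unadjusted p under 0.05. Of the 2 member rises, 1 was called with dim probe sets left out, since Aqp6 was among the 6 member probe sets that this filter left with no value, and 0 under the replicate block, the unmoderated test or the control gap term; with 1 rat left out, 0 to 2 were called. Of the 2 member falls, 1 was called under quantile normalization, 4 with array weights, 0 under the replicate block, the unmoderated test or the control gap term, and 0 to 6 with 1 rat left out. The cause of these losses was not tested. The rat numbers are not known to pair the animals. Same-numbered rats had deviations correlated at -0.01 to -0.18. Pairs with different numbers ran from -0.25 (congenic rat 1 with S rat 3) to 0.38 (congenic rat 2 with S rat 3). Which rats shared a cage is not given in the sources used here, so no fit has the cage as a block.

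With the control gap term 10 member probe sets changed sign: 1369625_at (0.020) and 1387651_at (-0.13) of Aqp1, Aqp7 (0.056), 1386679_at (0.53) and 1369857_a_at (-0.067) of Slc14a1, and 1387550_a_at (0.22), 1398312_s_at (0.20), 1371205_at (0.30), 1370494_at (0.053) and 1371204_at (-0.094) of Slc14a2. Array weights turned 1369857_a_at (-0.026) and 1371204_at (-0.016), and median centring turned 1371204_at (-0.0088), which ran from -0.040 to 0.082 with 1 rat left out. No other member changed direction under these alternatives. The control gap difference of -0.67 was -0.73 by beta-actin alone, -0.61 by Gapdh alone and -0.78 to -0.51 with 1 rat left out. Signal near background limits the dim probe sets of Aqp4, Aqp6, Avpr1a, Avpr2 and Slc14a2.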
